A study of Mus musculus with 6 samples.

Results

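Genes for costimulatory ligands and receptors are described here across the immune cells of mouse mammary tumours. They are Cd80, Cd86, Cd40, Cd28, Icos, Icosl, Cd40lg, Tnfsf8 and Tnfsf4, taken by symbol from the feature list of the deposited single-cell count matrices. All 9 were found, each under 1 Ensembl identifier, among 33696 features, of which 26208 had at least 1 count in the cells kept. In the order above, the identifiers are ENSMUSG00000075122, ENSMUSG00000022901, ENSMUSG00000017652, ENSMUSG00000026012, ENSMUSG00000026009, ENSMUSG00000000732, ENSMUSG00000031132, ENSMUSG00000028362 and ENSMUSG00000026700.

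The cells were live CD45-positive cells, CD45 being a surface protein of blood-derived cells, sorted from mammary tumours and captured with droplet chemistry that reads the 3′ end of transcripts. The series title names triple negative breast cancer, cyclophosphamide (an alkylating drug of chemotherapy) and inhibition of MERTK, a kinase receptor that macrophages carry. The treatment labels of the libraries used are MRX, CTX, Combined, ctxd18t and combod18t. The labels do not spell them out, and d18 is read here as day 18. Each label has 1 library, and neither the mouse strain, the tumour model, the age nor the number of animals behind a library is given in the sources used here. The protocol text, which is the same for every library, states that day 7 mice were dosed 3 hours before harvest. It mentions the harvest of spleens as well, while every library used is labelled as mammary tumour, and the tissue of origin was not tested. It lists MRX, CTX and Combined in a single multiplexed run with VC, a further library whose counts were not analysed here. Run and group therefore cannot be told apart wherever the day-18 libraries are set beside the others. With 1 library per label no difference has a replicate check, and no test was run and no p-value is given. Intervals are given at 95% and reflect counting error alone, so the spread between animals is not in them.

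Naive T cells respond fully to antigen only when a costimulatory signal comes with it. The best known is CD28 on the T cell, engaged by CD80 and CD86 of the B7 family on antigen-presenting cells, a pair of ligands that the inhibitory receptor CTLA-4 also binds. ICOS, a relative of CD28 made after activation, binds ICOSL. The other pairs belong to the TNF family and often run from the T cell to the presenting cell: CD40LG on helper T cells engages CD40 on macrophages, dendritic cells and B cells, TNFSF8 is the ligand of CD30, and TNFSF4 is the ligand of OX40, which activated T cells carry.

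The 5 libraries held 4085 to 9064 barcodes and 39820290 to 100733879 UMIs (unique molecular identifiers, 1 per captured transcript). After filtering, 3826 to 8520 cells per library were kept, with median UMI counts of 6239 (MRX), 8904 (CTX), 8250 (Combined), 8907 (ctxd18t) and 7243 (combod18t). Of all pairs of libraries, CTX and combod18t shared 34 barcodes, Combined and ctxd18t shared 21, and the other pairs shared 0. Levels are CPM, counts per 1000000 UMIs, from the counts summed over the cells of 1 class in 1 library. Because reads come from the transcripts' 3′ ends, levels are compared for 1 gene across cells and not between genes. Classes were rebuilt by clustering and named from marker genes, so the "-like" names are those of clusters, not of sorted cells. The monocyte-macrophage-like class held 1373 MRX, 4269 CTX, 1170 Combined, 744 ctxd18t and 223 combod18t cells. In the same order of libraries, used throughout where 5 values stand without names, dendritic-like cells numbered 143, 241, 67, 79 and 30 and B-like cells 270, 505, 586, 724 and 235. Conventional CD4-like T cells (the resting and activated CD4-like sub-clusters, apart from the Treg-like class) numbered 455, 585, 335, 371 and 1427. Foxp3, the regulatory T cell factor, was seen in 0.841% (combod18t) to 2.39% (CTX) of them. The Treg-like class had 179, 295, 236, 178 and 233 cells and the CD8-like class 1034, 522, 260, 586 and 787. Most defining markers matched these names: Cd79a was seen in 97.9% to 99.3% of B-like cells, Csf1r in 80.5% to 89.9% of monocyte-macrophage-like cells and Foxp3 in 67.0% to 77.1% of Treg-like cells. Flt3, which marks dendritic cells, was seen in 62.9%, 29.9%, 40.3%, 81.0% and 90.0% of dendritic-like cells, so its share was low in CTX and Combined. Cd4 was seen in 2.61% to 4.41% of CD8-like cells of the first 3 libraries, but in 13.7% of those of ctxd18t and 14.6% of those of combod18t. Sub-cluster 11 of the activated CD4-like cells went against its class name in MRX, where Cd4 was seen in 25.9% and Cd8a in 66.7% of its 27 cells. The part of these differences in the levels below was not tested. Clusters with high UMI counts and the markers of more than 1 class were left without a name, and they held 0.716% (MRX) to 6.06% (CTX) of a library's cells. Sub-clusters with more markers of another class than of their own among their 10 leading genes were left without a name as well. In the T, dendritic and B classes these held 74 to 299, 34 to 220 and 23 to 70 cells per library. Among them, T sub-cluster 6 had 515 cells, with H1f5, Knl1 and Gzma among its leading genes. Its best marker score was 0.79 and the next 0.46, so it was left out by this rule and not for a low score.

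Cd86, the B7 ligand that presenting cells carry without strong stimulation, stood well above its T-cell level in all 3 presenting classes. In monocyte-macrophage-like cells Cd86 stood at 677 CPM in combod18t (interval 648 to 707), 592 in ctxd18t (578 to 607), 479 in Combined (468 to 491), 401 in CTX (396 to 407) and 371 in MRX (360 to 382). The 5 intervals did not overlap, and both day-18 libraries were above the other 3. In dendritic-like cells the Cd86 level was 574 CPM (MRX), 555 (CTX), 513 (Combined), 864 (ctxd18t) and 831 (combod18t). B-like cells had 627, 673, 680, 808 and 713 CPM of Cd86 in the same order, above monocyte-macrophage-like cells in every library. Dendritic-like cells exceeded monocyte-macrophage-like cells in 5 of 5 libraries, by 1.07 to 1.55-fold, with separate intervals in 4. B-like and dendritic-like cells had no fixed order, since the dendritic-like level was higher in 2 of 5 libraries. At least 1 Cd86 UMI was found in 74.1% to 89.4% of B-like cells, and in 39.3% to 46.6% after each cell was thinned to 1000 UMIs.

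Within the monocyte-macrophage-like class, Combined was above CTX for Cd86 in each of the 5 clusters that make up the class. The log2 ratio of CPM + 1 over the whole class was 0.25 (interval 0.22 to 0.29) for Combined against CTX and 0.19 (0.12 to 0.26) for combod18t against ctxd18t. By cluster, the ratio of Combined to CTX ran from 0.21 in cluster 4 (leading genes Ly6i, Cxcl9 and Inhba) to 0.43 in cluster 5. In cluster 6, led by Adgre4, Ace and Treml4, its value of 0.24 had an interval of -0.004 to 0.47. The difference was small: no value reached 1, the 2-fold size used throughout to call a change. In dendritic-like and B-like cells Combined and CTX differed by -0.11 (-0.26 to 0.03) and 0.02 (-0.08 to 0.11), intervals that include 0.

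Cd80, the B7 ligand that binds CD28 and CTLA-4 more tightly, was distributed differently from Cd86. In monocyte-macrophage-like cells Cd80 stood at 120 CPM (MRX), 105 (CTX), 121 (Combined), 166 (ctxd18t) and 163 (combod18t). Dendritic-like cells had 307, 236, 270, 289 and 435 CPM, above the monocyte-macrophage-like level in 5 of 5 libraries with separate intervals. The day-18 levels in dendritic-like cells rested on 392 counts in ctxd18t and 247 in combod18t, and their log2 ratio was 0.59 (0.36 to 0.82). B-like cells had only 8.23 to 26.5 CPM of Cd80, below the monocyte-macrophage-like level in 5 of 5 libraries, by at least 6.16-fold.

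Neutrophil-like cells, which are not counted among the professional presenting cells, carried Cd80 at levels near those of dendritic-like cells. Their Cd80 level was 372 CPM (MRX), 277 (CTX), 352 (Combined), 317 (ctxd18t) and 357 (combod18t). It was above that of monocyte-macrophage-like cells in 5 of 5 libraries, by 1.91 to 3.10-fold with separate intervals. Its interval overlapped that of dendritic-like cells in 4 of 5 libraries and lay above it in MRX. A Cd80 UMI was found in 48.4% to 56.8% of neutrophil-like cells, and in 16.1% to 37.3% of those cells thinned to 1000 UMIs. The summed level of the monocyte-macrophage marker list in neutrophil-like cells was 1068 CPM (MRX), 5791 (CTX), 4018 (Combined), 2286 (ctxd18t) and 2650 (combod18t). In monocyte-macrophage-like cells that list summed to between 12210 and 16460 CPM, and the part of those markers in the neutrophil-like Cd80 was not tested. Cd86 in neutrophil-like cells, at 67.6, 248, 168, 134 and 47.6 CPM, was highest in CTX, where the macrophage list was highest too, and the part of those markers in it was not tested.

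Treg-like cells carried Cd80 in every library, although CD80 is usually described as a ligand that T cells receive. The Treg-like level was 69.7 CPM (MRX), 92.9 (CTX), 113 (Combined), 126 (ctxd18t) and 139.5 (combod18t). At least 1 Cd80 UMI was found in 20.1%, 38.3%, 38.6%, 33.1% and 42.5% of Treg-like cells (median UMI counts 5201, 8202, 6980, 6922 and 8449). The background was read from resting CD4-like cells, of which 0% to 0.855% had a Cd80 UMI at median UMI counts of 3658 to 6474. After thinning to 1000 UMIs the Treg-like shares were 5.59%, 7.46%, 11.4%, 7.87% and 11.6%, still above the resting CD4-like shares of 0% to 0.0802%. The monocyte-macrophage marker list summed to between 375 and 519 CPM in Treg-like cells and between 34.1 and 138 CPM in resting CD4-like cells, and its part in the Treg-like Cd80 was not tested.

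Activated T cells also held Cd80, and over each whole activated subset the level was lowest in MRX. In activated CD4-like cells Cd80 stood at 35.5 CPM in combod18t (interval 26.7 to 46.2), 60.7 in ctxd18t (49.5 to 73.6), 52.6 in Combined (42.4 to 64.5), 70.4 in CTX (60.9 to 81.0) and 17.4 in MRX (11.5 to 25.4). In effector CD8-like cells it was 10.4, 42.4, 31.9, 64.5 and 87.7 CPM, from MRX to combod18t in the usual order, while resting CD8-like cells had at most 1.47 CPM. MRX was the lowest of the 5 libraries in both activated subsets, and its intervals did not overlap any other. The log2 ratio of CTX to MRX was 1.95 (1.43 to 2.65) in activated CD4-like cells and 1.93 (1.41 to 2.68) in effector CD8-like cells. Within sub-cluster 5, the largest activated CD4-like sub-cluster of MRX, the ratio was 2.22 (1.30 to 3.44), from 34 counts in CTX and 11 in MRX, and in sub-cluster 11 it was 0.26 (-0.51 to 1.13). Sub-cluster 11 held 152 of 286 CTX and 27 of 279 MRX activated CD4-like cells, with 151 and 15 Cd80 counts. The part of this make-up in the ratio of 1.95 was not tested. MRX was not the lowest in sub-cluster 11, with 61.8 CPM from 15 counts beside 48.4 CPM from 18 counts in combod18t. The effector CD8-like subset was made up differently in each library: sub-cluster 10, where Cd80 stood at 36.2 to 116 CPM, held 14 of 676 MRX, 42 of 241 CTX, 4 of 129 Combined, 243 of 421 ctxd18t and 224 of 395 combod18t cells. Within sub-cluster 4, which held 570 of the MRX cells, the ratio of CTX to MRX was 1.10 (0.34 to 2.01). Thinned to 1000 UMIs, 1.08% of activated CD4-like cells in MRX and 2.82% in CTX had a Cd80 UMI, so few thinned cells carry the difference.

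**Figure D1:**
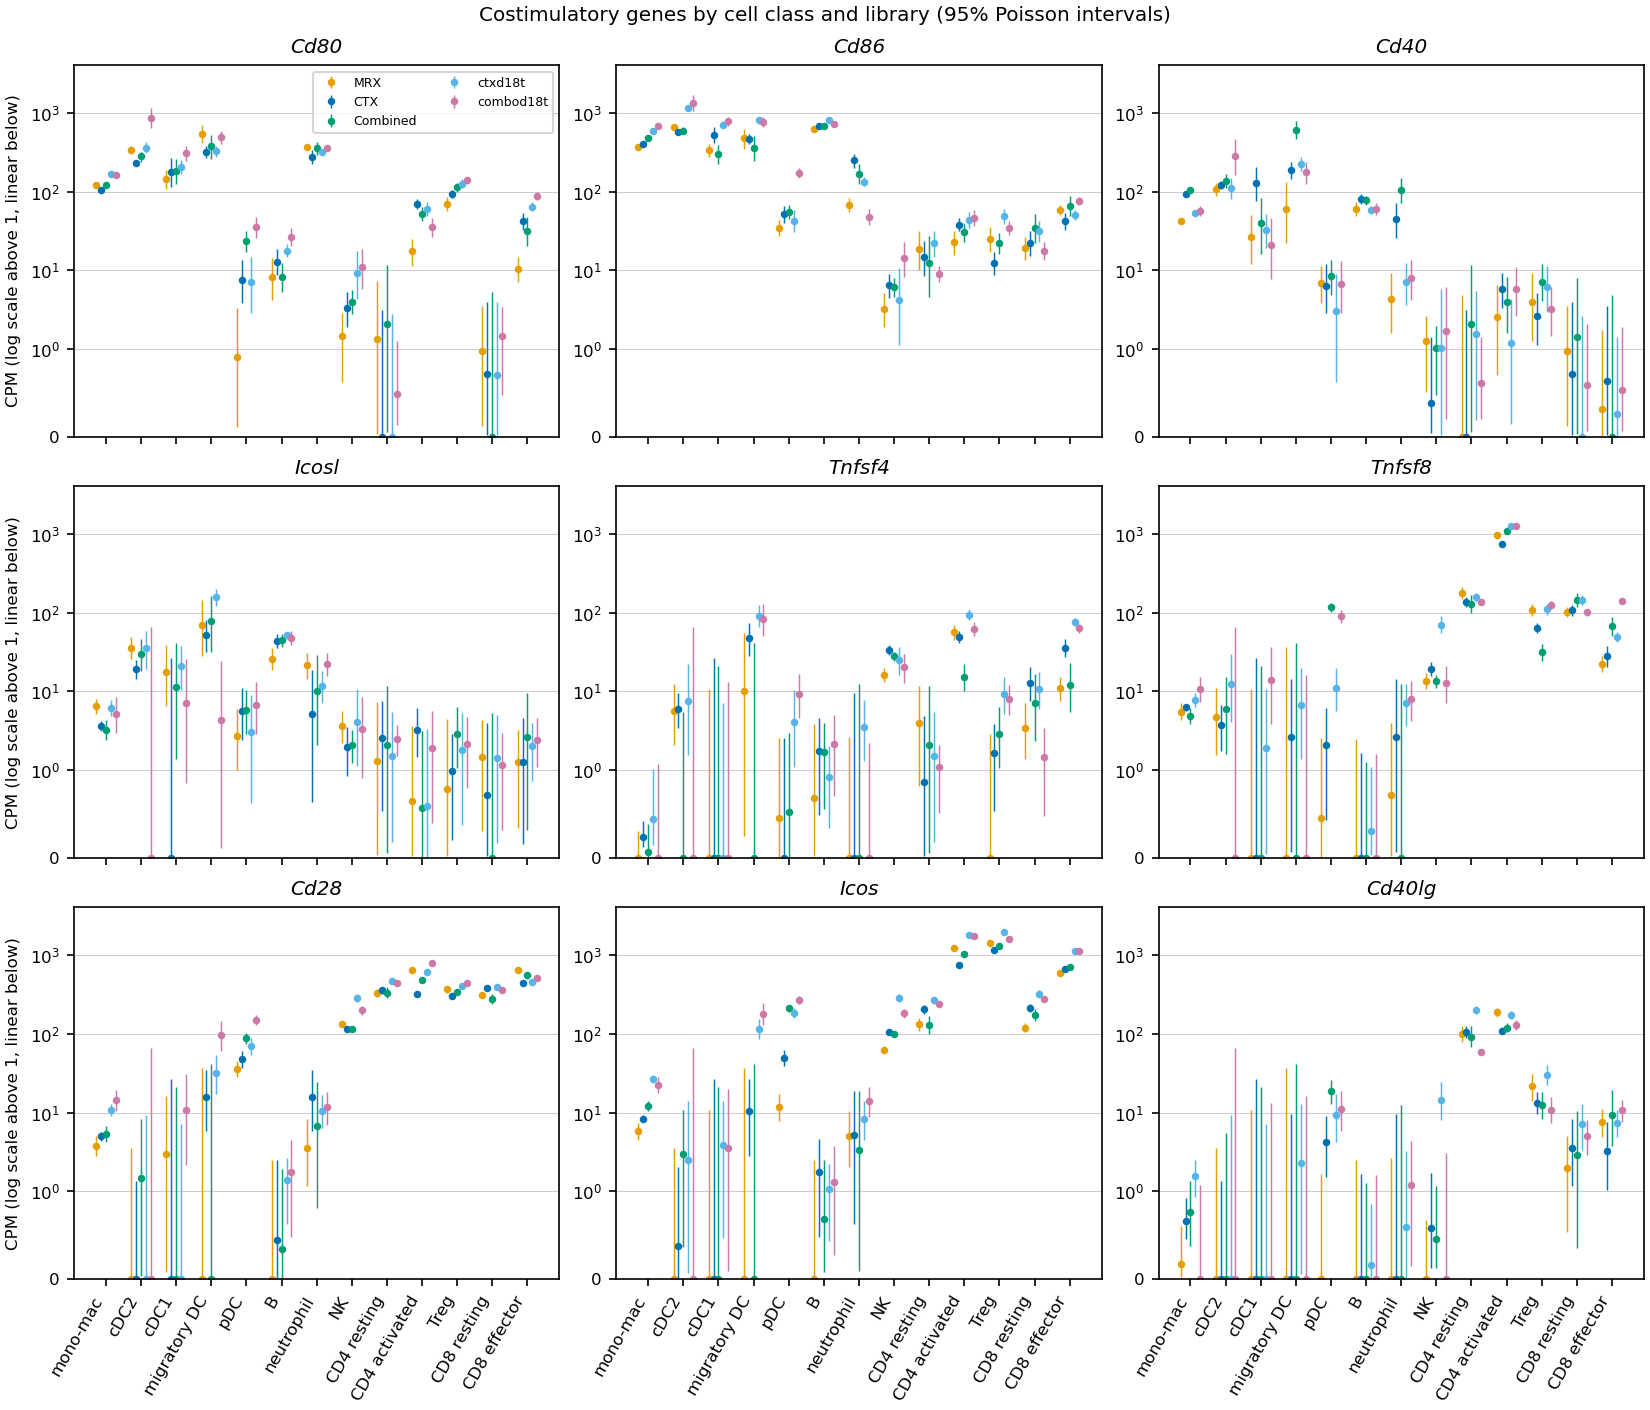
Level of each of the 9 genes (CPM, log scale above 1 and linear below) in 13 cell classes, with 1 point per library and exact 95% Poisson intervals. Cd86 is high in macrophage, dendritic and B classes. Cd80 is high in macrophage, dendritic and neutrophil-like classes and low in B-like cells. Cd28, Icos, Cd40lg and Tnfsf8 are high in T classes.

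Cells with both B7 ligands were common among macrophages. Among monocyte-macrophage-like cells, a UMI of Cd80 and of Cd86 was found together in 43.0% (MRX), 48.9% (CTX), 55.3% (Combined), 62.0% (ctxd18t) and 60.5% (combod18t). The product of the shares of the separate genes was 39.7%, 46.7%, 52.6%, 59.4% and 57.7%. The observed share was a little above the product in 5 of 5 libraries. Deeper cells have more UMIs of every gene, and the part of depth in this was not tested.

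Cd40, the receptor through which helper T cells license presenting cells, was the 1 gene of the 5 with enough counts in monocyte-macrophage-like cells that passed 2-fold between libraries. In monocyte-macrophage-like cells it stood at 57.0 CPM in combod18t (interval 48.8 to 66.1), 53.8 in ctxd18t (49.6 to 58.2), 106 in Combined (101 to 112), 92.1 in CTX (89.5 to 94.8) and 42.6 in MRX (39.0 to 46.5). CTX and Combined were high and MRX low, with the day-18 libraries between and overlapping each other. The log2 ratio to MRX was 1.10 (0.98 to 1.25) for CTX and 1.30 (1.17 to 1.47) for Combined, both past 2-fold. These ratios share MRX and are not independent. With a pseudocount of 10 CPM the ratio of CTX fell under 2-fold and that of Combined stayed past it. Combined against CTX gave 0.20 (0.12 to 0.29), and combod18t against ctxd18t gave 0.08 (-0.17 to 0.33). At least 1 Cd40 UMI was found in 23.5%, 50.2%, 56.2%, 40.1% and 34.5% of the cells, from MRX to combod18t in the usual order, and after thinning in 3.67%, 8.28%, 9.96%, 4.88% and 5.45%. In CD8-like cells, read as background, the thinned share was at most 0.192%.

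The clusters of the class showed where Cd40 lay. Cluster 4, led by Ly6i, Cxcl9 and Inhba, had 124 CPM (MRX), 113 (CTX), 122 (Combined), 102 (ctxd18t) and 144 (combod18t), and its intervals overlapped. It held 35 of the 1373 MRX cells but 1462 of 4269 CTX cells and 488 of 1170 Combined cells. Cluster 7, led by the complement genes C1qa and C1qc, had 99.0 CPM in Combined, 77.2 in CTX and 37.2 in MRX. The log2 ratio within cluster 7 was 1.03 (0.82 to 1.29) for CTX against MRX and 1.39 (1.10 to 1.72) for Combined against MRX. In cluster 3, led by the monocyte genes Vcan, F13a1 and Chil3, the same ratios were 0.75 (0.52 to 1.02) and 1.03 (0.78 to 1.33). When each cluster was given the same weight in both libraries, an alternative added after the data were seen, the class ratios became 0.46 for CTX and 0.70 for Combined against MRX, under 2-fold. Cluster 6, with 28 to 149 cells in these 3 libraries, had the largest ratios, 1.28 (0.59 to 2.08) for CTX and 2.40 (1.65 to 3.27) for Combined against MRX. In cluster 5 they were 0.20 (-0.09 to 0.51) and 0.75 (0.39 to 1.12). The larger class values thus held both differences within clusters 3, 6 and 7, and for Combined within cluster 5, and a different share of cells in cluster 4, whose Cd40 level did not differ between these 3 libraries beyond counting error.

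**Figure D2:**
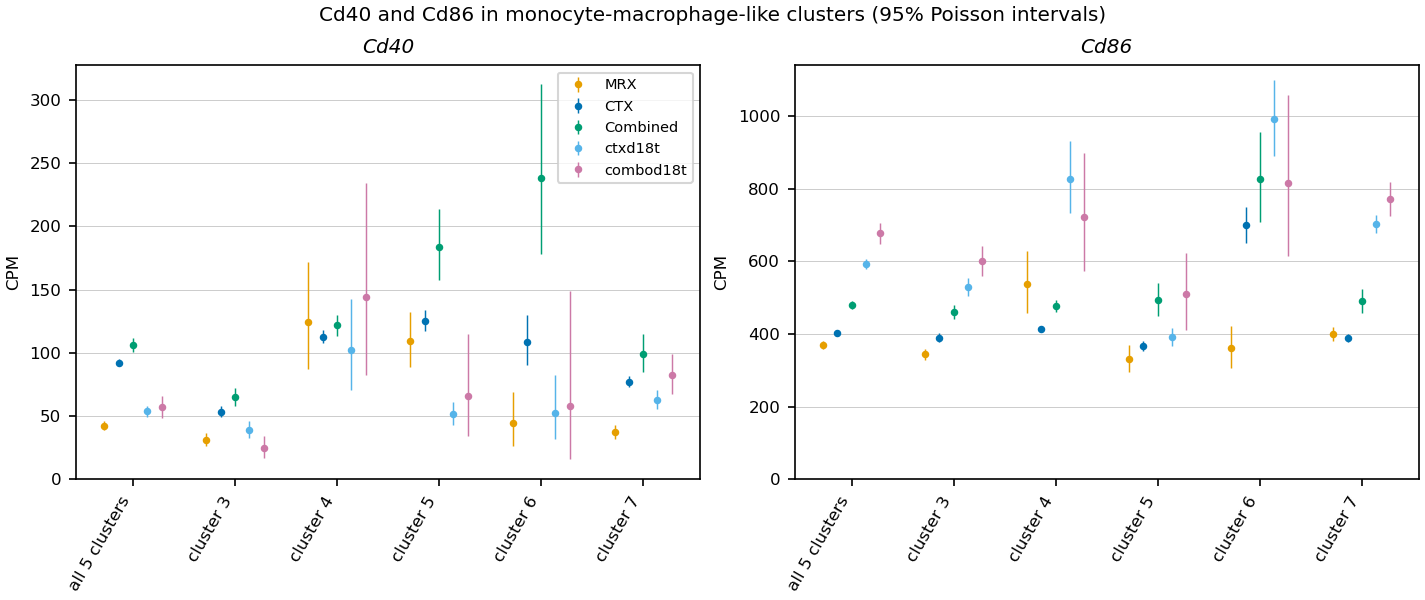
Cd40 and Cd86 (CPM) in all monocyte-macrophage-like cells and in their clusters 3 to 7, 1 point per library with exact 95% Poisson intervals. Cd40 of MRX is the lowest point in the pooled class at 42.6 CPM, while in cluster 4 the libraries lie between 102 and 144 CPM.

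Dendritic-like cells had more Cd40 than monocyte-macrophage-like cells in 5 of 5 libraries, with separate intervals in each. Their Cd40 level was 85.7 CPM (MRX), 129 (CTX), 164 (Combined), 117 (ctxd18t) and 109 (combod18t). The log2 ratio to MRX was 0.58 (0.30 to 0.89) in CTX and 0.93 (0.59 to 1.29) in Combined. Given the same mix of clusters, these became -0.11 and -0.16, but those values used only the 3 and 2 of 6 dendritic sub-clusters with enough cells in both libraries, so the part of the left-out cells was not tested. Of the 154 Cd40 counts of Combined dendritic-like cells, 43 came from 1 migratory dendritic-like cell. B-like cells, in which CD40 drives germinal centre responses, varied less, with 60.3, 80.0, 77.3, 58.8 and 59.96 CPM of Cd40.

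Icosl, the ligand of ICOS, was mainly a B-cell and dendritic-cell transcript here. B-like cells had 26.1 CPM (MRX), 44.0 (CTX), 44.5 (Combined), 51.7 (ctxd18t) and 47.8 (combod18t). The Icosl level of B-like cells was above that of monocyte-macrophage-like cells (3.25 to 6.49 CPM) in 5 of 5 libraries, by 4.01 to 13.7-fold. MRX was the lowest among the B-like values, and its log2 ratio to CTX was under 2-fold, at 0.73 for CTX against MRX (0.20 to 1.33).

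In dendritic-like cells Icosl stood at 34.1 CPM (MRX), 22.4 (CTX), 31.0 (Combined), 69.2 (ctxd18t) and 5.28 (combod18t). The log2 ratio of combod18t to ctxd18t was -3.48 (-6.02 to -2.12), the largest in size of the pairs of gene and class compared at day 18. It rested on few cells: combod18t had 3 counts in 30 cells, and of the 94 counts in ctxd18t 69 came from its 23 migratory dendritic-like cells, 26 of them from 1 cell. Migratory dendritic-like cells of combod18t, 10 in number, had 1 Icosl count. They also carried T-cell markers, with Cd3e seen in 40.0% of them against 17.4% in ctxd18t and a summed T-cell marker level of 843 CPM against 473, whose part in the ratio was not tested.

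Among the receptors, Cd28 was the most evenly spread over T cells. In conventional CD4-like cells it stood at 544 CPM (MRX), 328 (CTX), 448 (Combined), 548 (ctxd18t) and 489 (combod18t). In CD8-like cells the Cd28 level was 508, 414, 419, 431 and 440 CPM, and in Treg-like cells 365, 301, 342, 401 and 438 CPM. Conventional CD4-like cells exceeded Treg-like cells in 5 of 5 libraries, with separate intervals in 4, by 1.09 to 1.49-fold. NK-like cells had 134, 114, 116, 286 and 199 CPM of Cd28, below every T class listed here. At least 1 Cd28 UMI was found in 45.6% to 69.7% of NK-like cells against 0% to 1.70% of B-like cells. The T-cell marker list, which includes genes that NK cells may share, summed to between 900.2 and 1333 CPM in NK-like cells, and its part in their Cd28 was not tested.

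No Cd28 ratio of a whole T class passed 2-fold in any of the 4 comparisons. In the activated CD4-like subset, however, CTX was below MRX by a log2 ratio of -1.03 (-1.17 to -0.90). That subset had a different make-up in CTX: 152 of its 286 cells lay in sub-cluster 11, led by Ccl1, Xcl1 and Penk, against 27 of 279 cells in MRX. Sub-cluster 11 had the lower Cd28 level, 201 CPM in CTX and 288 in MRX, whereas sub-cluster 5 had 635 and 693 CPM. Within sub-cluster 5 the ratio of CTX to MRX was -0.12 (-0.31 to 0.06), and within sub-cluster 11 it was -0.52 (-0.89 to -0.14).

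Icos, the receptor made after T-cell activation, was graded across the T classes. Treg-like cells had 1410 CPM (MRX), 1158 (CTX), 1279 (Combined), 1962 (ctxd18t) and 1579 (combod18t). Activated CD4-like cells had 1224, 733, 1022, 1760 and 1725 CPM, below the Treg-like level in 4 of 5 libraries with separate intervals and above it in combod18t. Effector CD8-like cells had 591, 653, 698, 1107 and 1120 CPM, below activated CD4-like cells in 5 of 5 libraries. Resting CD4-like cells, at 132, 203, 129.7, 265 and 239 CPM, were 3.61 to 9.30-fold below the activated CD4-like cells. Effector CD8-like cells were 3.07 to 4.98-fold above resting CD8-like cells. The order Treg-like, activated CD4-like, effector CD8-like and resting thus held in 4 of 5 libraries, and both day-18 libraries had more Icos than the others in the Treg-like, activated CD4-like and effector CD8-like cells.

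Cd40lg, the helper T-cell ligand of CD40, was nearly restricted to conventional CD4-like cells. They had 158 CPM (MRX), 108 (CTX), 114 (Combined), 185 (ctxd18t) and 70.1 (combod18t). Treg-like cells had 10.9 to 29.96 CPM, 6.18 to 9.09-fold less, and CD8-like cells 3.39 to 7.95 CPM. In B-like cells, 1 count of Cd40lg was found in ctxd18t and 0 in the other 4 libraries. In resting CD4-like cells Cd40lg stood at 99.7, 105, 92.0, 201 and 58.6 CPM, beside 186, 109.6, 119, 173 and 130.3 CPM in activated CD4-like cells. The activated level was higher in 4 of 5 libraries, with separate intervals in only 2.

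Tnfsf8, the CD30 ligand, marked activated CD4-like cells above all. They had 964 CPM (MRX), 734 (CTX), 1087 (Combined), 1244 (ctxd18t) and 1240 (combod18t), against 130 to 180 CPM in resting CD4-like cells. The activated level was 5.37 to 9.21-fold higher. Treg-like cells had 108 CPM (MRX), 64.7 (CTX), 31.3 (Combined), 110 (ctxd18t) and 125 (combod18t). CD8-like cells had 53.5, 65.7, 104, 74.5 and 121 CPM, and Tnfsf8 was 3.35 to 7.04 CPM in dendritic-like cells and 4.92 to 10.8 CPM in monocyte-macrophage-like cells. In B-like cells 2 Tnfsf8 counts were found in ctxd18t and 0 elsewhere. Tnfrsf8, the gene of its receptor CD30, stood at 13.04 to 28.5 CPM in Treg-like cells and at 0.3 to 4.4 CPM in conventional CD4-like cells.

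Tnfsf4, the OX40 ligand, was low in the presenting cells in which it is best known. Dendritic-like cells had 7 counts (MRX), 34 (CTX), 0 (Combined), 43 (ctxd18t) and 19 (combod18t), or 4.69, 10.6, 0, 31.7 and 33.4 CPM. Single cells held much of these counts: 13 of the CTX counts and 17 of the ctxd18t counts came from 1 cell each, and all 19 of combod18t came from 1 cell. Most of them lay in the few migratory dendritic-like cells of CTX (33), ctxd18t (23) and combod18t (10), which had 47.0, 90.9 and 83.0 CPM from 18, 40 and 19 counts. In the 12 such cells of MRX and the 8 of Combined, 1 count and 0 counts were found. The T-cell marker list summed to 10.0 (MRX), 209 (CTX), 0 (Combined), 473 (ctxd18t) and 843 CPM (combod18t) in migratory dendritic-like cells. The part of those markers in their Tnfsf4 was not tested. Monocyte-macrophage-like cells had at most 0.4 CPM of Tnfsf4 and B-like cells at most 2.2 CPM. Among lymphocytes, activated CD4-like cells had 56.2, 48.9, 15.4, 94.5 and 62.6 CPM, effector CD8-like cells 11.01, 36.0, 11.9, 75.7 and 63.7 CPM, and NK-like cells 16.3, 33.9, 27.9, 24.9 and 20.2 CPM. Within them, sub-cluster 11 of the activated CD4-like cells had the highest Tnfsf4 level in MRX, ctxd18t and combod18t, with 292, 203 and 242 CPM. Its own receptor gene, Tnfrsf4 (OX40), stood at 585 to 1104 CPM in Treg-like cells and at 12.5 to 85.2 CPM in CD8-like cells.

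The comparison taken up here set Combined against CTX, with 1 library each. It was made for 33 pairs of gene and class: Cd80, Cd86, Cd40, Icosl, Tnfsf8 and Tnfsf4 in the 3 presenting classes and Cd28, Icos, Cd40lg, Tnfsf8 and Tnfsf4 in the 3 T classes. Of these, 27 had at least 20 counts in the pair of libraries; 0 were at least 2-fold higher and 4 at least 2-fold lower in Combined. Over all genes in the same 6 classes, 1.19% of gene and class pairs were at least 2-fold higher and 1.34% at least 2-fold lower. Tnfsf4 made up 3 of the 4 pairs and Tnfsf8 the other.

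Tnfsf4 was lower in Combined in dendritic-like, conventional CD4-like and CD8-like cells. In dendritic-like cells Combined had 0 counts and CTX 34, from 67 and 241 cells. The CTX level was 3.30-fold a floor of 3 counts over the Combined class. Counting intervals were 0 to 3.94 CPM in Combined and 7.31 to 14.8 CPM in CTX. In conventional CD4-like cells the level was 12.6 CPM in Combined and 34.8 in CTX, a log2 ratio of -1.40 (-2.11 to -0.87), from 28 and 137 counts. Cd8a, a CD8 T-cell gene, stood at 80.8, 88.8, 34.1, 56.7 and 14.2 CPM in the conventional CD4-like class and so was low in Combined and combod18t, as Tnfsf4 was there, and its part in the Tnfsf4 ratios was not tested. In CD8-like cells it was 9.66 and 25.1 CPM, a log2 ratio of -1.29 (-2.32 to -0.54), from 14 and 74 counts. Within sub-cluster 11 the ratio was -0.998 (-1.72 to -0.38). With the same mix of sub-clusters in both libraries the ratios were -0.98 in conventional CD4-like and -0.86 in CD8-like cells, just under 2-fold. The CD8-like value used sub-clusters 0, 2 and 4. It left out sub-cluster 10, which held 44 of the 74 CTX counts in 42 cells and had 4 cells in Combined. With a pseudocount of 10 CPM in place of 1 none of these T-cell ratios reached 2-fold. NK-like cells, at 27.9 CPM in Combined and 33.9 in CTX, had overlapping intervals of 24.5 to 31.6 and 29.1 to 39.4 CPM.

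Tnfsf8 in Treg-like cells was lower in Combined than in CTX by a log2 ratio of -1.03 (-1.48 to -0.64), from 65 and 195 counts. With a pseudocount of 10 CPM this ratio was under 2-fold. Against MRX the ratio was -1.75 (-2.23 to -1.35). It was -0.60, under 2-fold, with the same mix of sub-clusters 3 and 7, without sub-cluster 16. Within sub-cluster 3 it was -1.26 (-2.33 to -0.28) and within sub-cluster 7 it was -0.24 (-0.98 to 0.51). The highest Treg-like level was in sub-cluster 16, which had 907, 624, 447, 482 and 462 CPM but only 19, 10, 5, 38 and 51 cells in the order of libraries above. It held 88 of the 136 Treg-like Tnfsf8 counts in MRX, but 30 of 195 in CTX, where 107 lay in sub-cluster 3, and 11 of 65 in Combined. Sub-cluster 3 was led by histone and cell-division genes such as H1f5, H3c3 and Esco2. Its marker score was 0.79 for Treg-like and 0.65 for activated CD4-like, and the part of dividing cells in its ratios was not tested. Within sub-cluster 3 Combined was below CTX by -1.68 (-2.54 to -1.01), and within sub-cluster 7, the largest Treg-like one, by -0.47 (-1.12 to 0.15). In effector CD8-like cells, a subset outside the 33 pairs, Tnfsf8 went the other way, with 67.7 CPM in Combined and 28.3 in CTX, a log2 ratio of 1.23 (0.65 to 1.87). It was also higher in combod18t than in ctxd18t there, at 139 and 49.0 CPM, a ratio of 1.49 (1.26 to 1.75). Its sub-clusters did not move alike. In the day-18 comparison sub-cluster 10 gave 1.93 (1.68 to 2.23) and sub-cluster 4 gave -1.34 (-2.41 to -0.48). For Combined against CTX, 29 of the 51 Combined counts lay in 18 cells of sub-cluster 2, and sub-cluster 4 gave 0.53 (-0.34 to 1.44).

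In conventional CD4-like cells, 3 genes for receptors and ligands of activation were higher in Combined than in CTX by less than 2-fold. The log2 ratio was 0.45 (0.33 to 0.57) for Cd28, 0.52 (0.43 to 0.61) for Icos and 0.66 (0.57 to 0.75) for Tnfsf8. With the same mix of sub-clusters they were 0.07, -0.07 and 0.32. Cd40lg was at 0.07 (-0.16 to 0.30), and at -0.49 with the same mix. Within single sub-clusters its ratio was -0.56 (-0.93 to -0.20) in 5, -1.31 (-2.23 to -0.55) in 8 and -1.04 (-1.66 to -0.43) in 12, and 0.36 (-0.15 to 0.86) in 11.

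**Figure D3:**
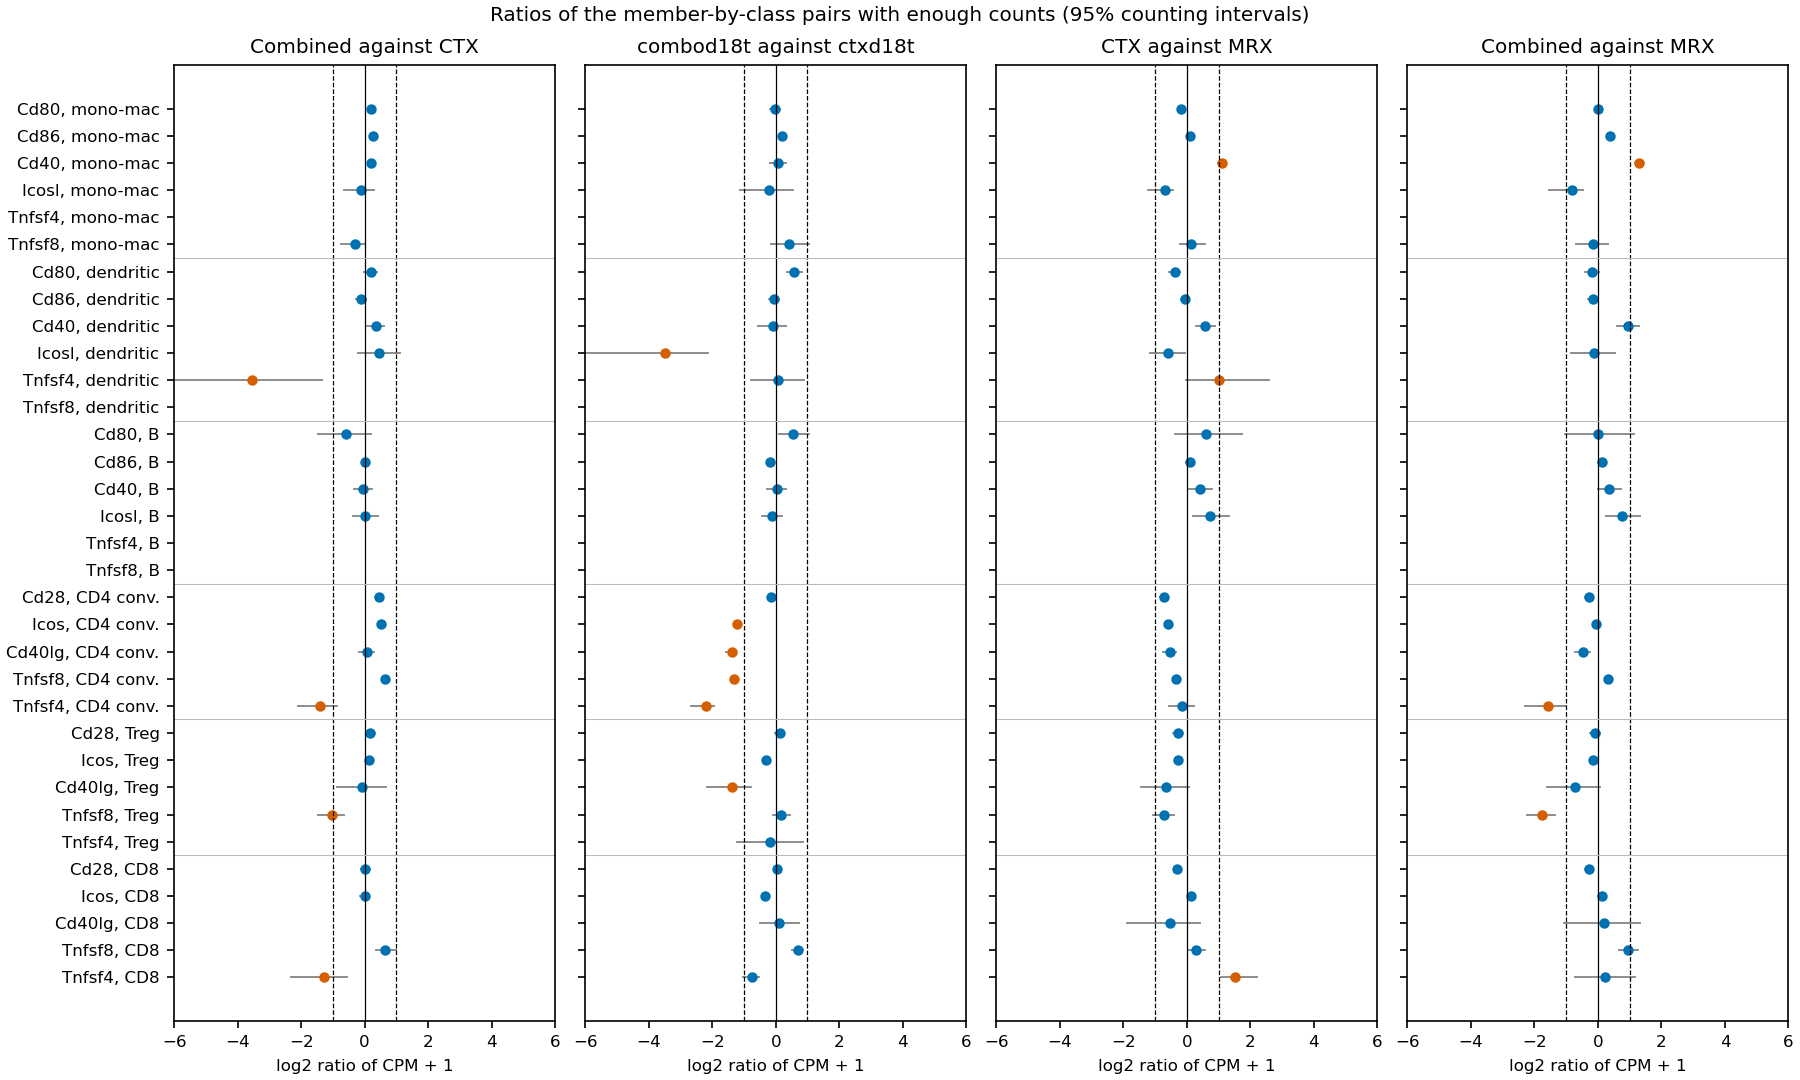
Log2 ratios of CPM + 1 with 95% counting intervals for the gene and class pairs that had at least 20 counts, in 4 panels for the 4 comparisons; intervals are clipped at 6 in size, dashed lines mark 2-fold and orange points lie past it. Orange points number 4 for Combined against CTX, 6 for combod18t against ctxd18t, 3 for CTX against MRX and 3 for Combined against MRX.

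At day 18, combod18t and ctxd18t differed most in conventional CD4-like cells. Of 29 pairs with enough counts, 0 were at least 2-fold higher and 6 at least 2-fold lower in combod18t, while over all genes and the same classes 2.24% of pairs were higher and 3.67% lower by that size. The dendritic-like Icosl given above is 1 of the 6, and 4 are in conventional CD4-like cells, where 8.52% of all 11176 genes with enough counts were at least 2-fold lower. These 4 are Icos, with 478 against 1108 CPM and a log2 ratio of -1.21 (-1.28 to -1.15), Cd40lg, Tnfsf8 and Tnfsf4. The ratio of Cd40lg was -1.39 (-1.57 to -1.24). Tnfsf8, at 312 against 770 CPM, had -1.30 (-1.38 to -1.22), and Tnfsf4, at 10.96 against 54.0 CPM, had -2.20 (-2.67 to -1.94). Cd28 differed by only -0.16 (-0.24 to -0.08).

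These differences in conventional CD4-like cells went with the make-up of the class. The resting subset held 1255 of 1427 combod18t cells and 191 of 371 ctxd18t cells, and a single resting sub-cluster, 14, held 1178 of the combod18t cells against 73 of ctxd18t. Within activated CD4-like cells the log2 ratio was -0.03 (-0.10 to 0.05) for Icos and -0.00 (-0.09 to 0.09) for Tnfsf8, on 172 and 180 cells. For Tnfsf4 it was -0.59 (-0.98 to -0.22). With the same mix of sub-clusters the class ratios were -0.26 for Icos, -0.05 for Tnfsf8 and 0.14 for Tnfsf4. In both of these comparisons the 3 genes were under 2-fold. Tnfsf4 turned its sign in the same-mix value, and within single sub-clusters it was -1.24 (-2.88 to 0.04) in 5, from 7 and 15 counts, and 0.26 (-0.14 to 0.65) in 11.

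Cd40lg kept part of its difference within subsets. In resting CD4-like cells it was 58.6 CPM in combod18t and 201 in ctxd18t, a log2 ratio of -1.76 (-1.997 to -1.55). Within sub-cluster 14 the levels were 58.0 and 105 CPM, a ratio of -0.84 (-1.26 to -0.43). The highest level, 342 CPM, was in the 85 ctxd18t cells of sub-cluster 13, led by the stress and immediate-early genes Hspa1a and Jun, of which combod18t had 3 cells. In activated CD4-like cells the ratio was -0.41 (-0.68 to -0.15), with -1.03 (-1.37 to -0.70) in sub-cluster 5. In sub-clusters 8, 11 and 12 it was -0.37 (-1.45 to 0.71), -0.17 (-1.24 to 0.83) and -0.15 (-0.67 to 0.37), intervals that include 0. With the same mix of sub-clusters, which left out sub-cluster 13, the class ratio was -0.75. In Treg-like cells, the sixth pair past 2-fold, Cd40lg was 10.9 CPM in combod18t and 29.96 in ctxd18t, a ratio of -1.38 (-2.17 to -0.78) from 30 and 49 counts, of which up to 11 came from 1 cell. The share of Treg-like cells with a Cd40lg UMI was 9.87% in combod18t and 8.99% in ctxd18t, and so was not lower. Within sub-cluster 7, the largest, the ratio was -0.53 (-1.50 to 0.39). Within sub-cluster 3, led by histone genes such as H1f5, it was -2.58 (-4.79 to -1.11), from 4 and 16 counts.

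**Figure D4:**
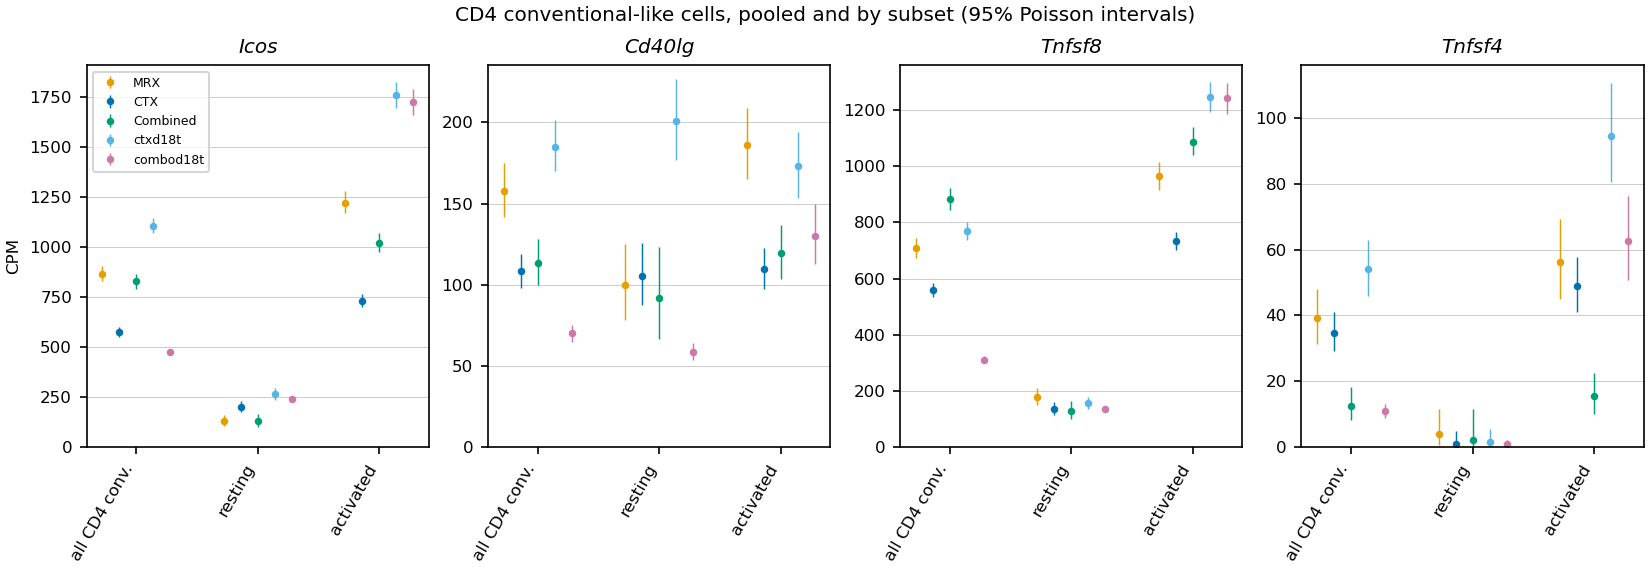
Icos, Cd40lg, Tnfsf8 and Tnfsf4 (CPM) in all conventional CD4-like cells and in their resting and activated subsets, 1 point per library with exact 95% Poisson intervals. The low combod18t points of Icos and Tnfsf8 in the whole class are absent in the activated subset, and that of Cd40lg is present in the resting subset.

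Against MRX, CTX and Combined share the same library, so their values stand side by side and are not independent. Of 28 pairs with enough counts, 3 were at least 2-fold higher in CTX and 0 lower; over all genes and classes 2.73% were higher and 1.87% lower. Of 27 pairs, 1 was higher and 2 lower in Combined, beside 3.15% and 2.27% of all. Cd40 in monocyte-macrophage-like cells was past 2-fold in both. Tnfsf4 in CD8-like cells was 25.1 CPM in CTX and 8.05 in MRX, a log2 ratio of 1.53 (1.07 to 2.22). It was 0.07 with the same mix of sub-clusters, but these did not move alike: the ratio was 1.65 (0.58 to 3.41) in sub-cluster 0 and 1.39 (0.26 to 2.97) in sub-cluster 4, the largest ones in these libraries, and -0.75 (-1.52 to 0.06) in sub-cluster 10, with 42 and 14 cells. Tnfsf4 in dendritic-like cells, from 34 and 7 counts, had a ratio of 1.02 with an interval of -0.02 to 2.59 that includes 0. For Combined the lower pairs were Tnfsf8 in Treg-like cells, given above, and Tnfsf4 in conventional CD4-like cells, at -1.56 (-2.30 to -1.01). The direction of the latter depended on how T cells were grouped: with T subsets set by UMIs of Cd4, Cd8a, Cd8b1 and Foxp3 it was 0.81.

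Within sub-cluster 11 Tnfsf4 was also lower in Combined than in MRX, but the cells set side by side there were not alike. Cd8a was seen in 66.7% (MRX), 22.4% (CTX), 10.2% (Combined), 30.4% (ctxd18t) and 27.6% (combod18t) of its cells, and Cd4 in 25.9%, 77.0%, 89.8%, 78.6% and 79.3%. The MRX cells of this sub-cluster thus carried CD8 markers more often than Cd4, and the part of this in its ratios to MRX was not tested. Its Tnfsf4 level was 292 CPM (MRX), 62.8 (CTX), 30.9 (Combined), 203 (ctxd18t) and 242 (combod18t), from 27, 152, 59, 56 and 29 cells. The log2 ratio to MRX was -2.20 (-2.65 to -1.78) in CTX and -3.20 (-3.97 to -2.56) in Combined. CTX and Combined were low and the other 3 libraries high, without overlap of intervals between the 2 sets of libraries. Over the whole conventional CD4-like class CTX and MRX differed by only -0.17 (-0.56 to 0.23). This sub-cluster held 152 of 585 such cells in CTX and 27 of 455 in MRX. With the same mix the ratio of CTX to MRX was -1.97, a value that rests on these sub-cluster 11 cells.

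The other genes of these pathways were read from 3 lists: 9 of the B7 and CD28 family, 11 of the TNF family and 18 of the signalling path downstream. In monocyte-macrophage-like cells Cd274 and Pdcd1lg2, the genes of the inhibitory ligands PD-L1 and PD-L2, were at least 2-fold higher than in MRX in both CTX (2 of 8 family genes with enough counts) and Combined (3 of 8, with Tnfrsf14). At least 2-fold higher were 1.41% of all genes in that class for CTX and 2.44% for Combined. Cluster 4, led by Ly6i and Cxcl9, held 35 of 1373 MRX, 1462 of 4269 CTX and 488 of 1170 Combined cells. The part of this make-up in these ratios was not tested. In combod18t against ctxd18t, 5 of 8 were lower there (Ctla4, Pdcd1lg2, Pdcd1, Btla and Cd276), beside 2.49% of all genes. The list median was -1.20 against 0.04 over all genes. Ctla4, Pdcd1 and Btla are T-cell or B-cell genes. In this class the T-cell marker list was lower in combod18t too, at 105 CPM against 167, and the B-cell list stood at 79.9 and 94.9 CPM. The part of these markers was not tested.

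In conventional CD4-like cells of combod18t, 5 of 7 B7 and CD28 family genes (Ctla4, Cd274, Pdcd1lg2, Pdcd1 and Btla) and 5 of 8 TNF family genes (Tnfrsf4, Tnfrsf9, Tnfsf9, Cd70 and Tnfsf14) were at least 2-fold lower than in ctxd18t, beside 8.52% of all genes in that class. The list medians were -1.23 and -1.90, against -0.04 over all genes. Among the signalling genes, 1 of 18 (Traf1) was lower. Ctla4, the inhibitory receptor of the B7 ligands, was 147 CPM in combod18t and 577 in ctxd18t in this class, and 642 and 937 CPM in its activated subset. Treg-like cells had 1698 to 2302 CPM of Ctla4 in the 5 libraries. In CD8-like cells Tnfrsf4, Tnfrsf9 and Tnfsf9 were at least 2-fold higher in CTX than in MRX (3 of 6 TNF family genes, beside 1.52% of all genes) and at least 2-fold lower in Combined than in CTX (3 of 5, beside 1.50%). These comparisons share CTX. Sub-cluster 10 held 42 of 522 CD8-like cells in CTX, 14 of 1034 in MRX and 4 of 260 in Combined, and it gave 628 of the 985 CTX counts of Tnfrsf9. Within sub-cluster 10 Tnfrsf9 stood at 1484 CPM in MRX and 1689 in CTX, and within sub-cluster 4 at 102 and 255 CPM. In conventional CD4-like cells Tnfrsf9, Tnfsf9 and Cd70 were at least 2-fold higher than in MRX in CTX and in Combined (3 of 8 in each), where 4.75% and 4.11% of all genes were. Sub-cluster 11 held 27 of 455 such cells in MRX, 152 of 585 in CTX and 59 of 335 in Combined. The part of this make-up in these ratios was not tested. The signalling list had 0 to 4 genes past 2-fold in each class and comparison.

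Which class supplied a gene's counts changed with the make-up of the libraries. Monocyte-macrophage-like cells gave 58.9% of all Cd86 counts (MRX), 68.8% (CTX), 58.2% (Combined), 36.0% (ctxd18t) and 24.9% (combod18t). B cells gave 15.3%, 6.50%, 19.3%, 32.3% and 21.5% of Cd86. For Cd40 the monocyte-macrophage-like share was 58.6%, 73.6%, 62.6%, 40.9% and 26.9%. T cells gave 5.84%, 8.60%, 13.4%, 13.3% and 27.1% of the Cd80 counts, so that in combod18t they gave more of it than the monocyte-macrophage-like cells, with 14.9%. Tnfsf4 counts came from NK-like cells in 71.7% of cases in Combined and 37.3% in MRX, but in 2.86% in ctxd18t and 4.39% in combod18t, where T cells gave 61.4% and 73.9%. In these shares B and T cells are whole clusters, with the sub-clusters that were left unnamed above. The mixed clusters held up to 24.4% of a gene's counts (Cd86 in combod18t). The larger of them, cluster 13, led by C1qa, Itga9 and Ms4a7, scored highest as monocyte-macrophage-like, and its counts are not in that class's shares. The order of T and monocyte-macrophage-like cells for Cd80 in combod18t thus holds for the named clusters only.

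**Figure D5:**
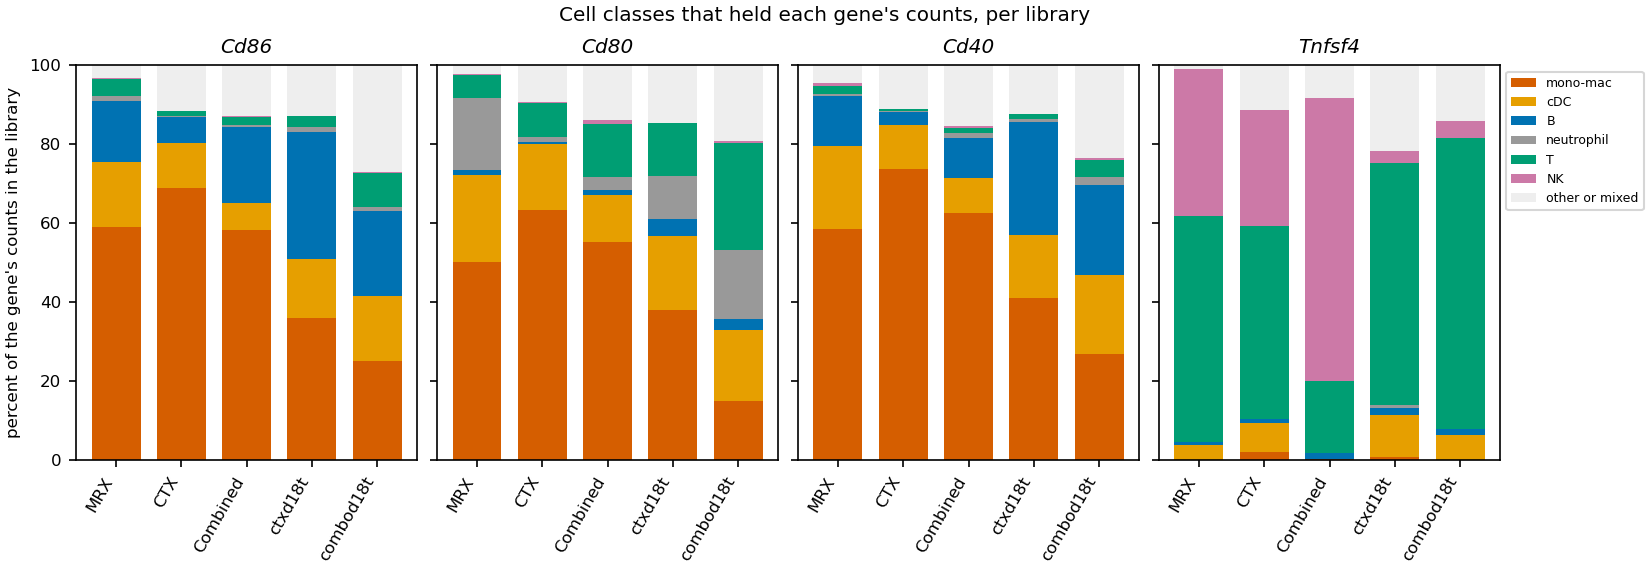
Share of each library's counts of Cd86, Cd80, Cd40 and Tnfsf4 that came from each cell class (percent, stacked to 100), 1 bar per library; light grey is other or mixed clusters. The monocyte-macrophage-like share of Cd86 is 68.8% in CTX and 24.9% in combod18t.

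The genes whose level was most like each of the 9 were found over 53 sums of cells (12 classes in up to 5 libraries, at least 50 cells each) by Pearson correlation of log levels among 11075 genes. These are descriptions: sums of 1 library share their run and depth. Cd40 was most like the class II antigen presentation genes H2-Ab1 (0.91), H2-Eb1 (0.91) and H2-DMb2 (0.91). Cd80 was most like Alcam (0.91) and Il1r2 (0.90), and Cd86 most like Gm49662 (0.90), Car13 (0.89) and H2-DMb2 (0.88). Icosl was closest to Wdfy4 (0.86). On the T-cell side Cd28 was closest to Camk4 and Trbc2 (both 0.97), and Icos to Cd3g (0.97), a gene of the T-cell receptor complex. Cd40lg was closest to Trat1 (0.90), followed by Siah3 (0.89) and Tnfsf8 (0.86), Tnfsf8 to Lrig1 (0.91) and Tnfsf4 to Cd160 (0.86), followed by Farp1 and Tbx21.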

How the data were processed

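Per the labels' protocols, the authors captured cells with the 10x 3′ on-chip multiplexing kit and processed reads with Cell Ranger, and they deposited raw UMI counts, whole numbers by gene and barcode. The submitters' processing notes name build GRCm39 and Seurat 5.2.0, with no role given. The 9 genes, the gene lists and the comparisons were chosen with earlier results of these data known.

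Cells with at least 200 genes and at most 15% mitochondrial counts were kept, which removed 52 to 166 barcodes per library. Scrublet's automatic threshold marked under 0.5% of cells, so those in the highest 5% by score were removed (ties kept, 165 to 378 cells). Cells were brought to 10000 counts each, and 2000 variable genes without the 9 genes and their lists gave 30 principal components and a graph of 15 neighbours for Leiden clustering (resolution 1; scanpy 1.11.5, leidenalg 0.10.2, Python 3.11.15), without integration. T cells were clustered again. Clusters were named from fixed markers, and the scoring and the rule for mixed clusters were set after seeing cluster markers, not levels of the 9 genes. Gamma-delta markers matched 5 of 9 symbols.

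Raw counts were summed per class and library and given as CPM with exact Poisson intervals, shares with exact Clopper-Pearson intervals, and ratios as log2 of CPM + 1 with exact conditional binomial intervals (scipy 1.17.1). The pseudocount understates the change of low genes. A ratio needed 20 counts in the pair of libraries, and 2-fold was called. Total counts per library were 39820290 (MRX), 100733879 (CTX), 46174239 (Combined), 49001922 (ctxd18t) and 41889498 (combod18t), and precision follows the counts behind each level. The named genes are all 9, those of the lists past 2-fold and the 3 most alike in level. The ratio step was tested on simulated counts. The alternatives were 10 planned ones and 1 added. Genome coordinates were not used here.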

Additional observations from a re-analysis of the deposited data

Results flagged for a closer look

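For 4 pairs of gene and class, Combined differed from CTX in one direction and combod18t from ctxd18t in the other, with intervals on opposite sides of 0. The difference between the 2 contrasts was not tested, since each rests on 1 library per label. The pairs with the widest gaps on the log2 scale were Tnfsf8 (1.96, from 0.66 and -1.30) and Icos (1.74, from 0.52 and -1.21) in conventional CD4-like cells. Cd28 in the same cells had a gap of 0.61, from 0.45 and -0.16, and Icos in Treg-like cells one of 0.46, from 0.14 and -0.31. With the same mix of sub-clusters in both libraries of a contrast the values were 0.32 and -0.05 for Tnfsf8, -0.07 and -0.26 for Icos, and 0.07 and 0.07 for Cd28. They were 0.07 and -0.36 for Icos in Treg-like cells. Within some single sub-clusters the contrasts went the same way. Tnfsf8 was at -0.31 and -0.30 in sub-cluster 5 and at 0.998 and 0.63 in sub-cluster 11, and Treg-like Icos was at -0.09 and -0.34 in sub-cluster 7 but at 0.31 and -0.26 in sub-cluster 3.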

How the results depend on the processing

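Each of the 111 ratios with enough counts, 16 of them past 2-fold, was recomputed under 10 other choices and 1 added after seeing the data, the same mix of clusters. All 16 calls were kept with no count minimum, median-of-ratios scaling, at least 500 genes per cell and mixed clusters kept. Fewer were kept with no doublets removed or clustering resolution 2 (15 each), averaging CPM over single cells (14), thinning to 1000 UMIs (12), T subsets by UMIs of Cd4, Cd8a, Cd8b1 and Foxp3 (11), a pseudocount of 10 CPM (9) and the same mix of clusters (6). The number of pairs past 2-fold was 4 for Combined against CTX, and became 1 with the higher pseudocount, 2 with CPM averaged over single cells and 2 with the same mix. For combod18t against ctxd18t it was 6, and 2 with the same mix. For CTX against MRX it was 3, and became 0 with the higher pseudocount, 6 with thinned cells and 5 with mixed clusters kept. For Combined against MRX it was 3, and became 5 with no count minimum, 8 with thinned cells and 5 with mixed clusters kept. Of all 111 ratios, 0 to 21 changed sign under a setting, most with the same mix. Of the 16 calls, 2 turned in direction: Tnfsf4 in conventional CD4-like cells for combod18t against ctxd18t with the same mix (0.14) and for Combined against MRX with T subsets by UMIs (0.81). The same mix compares fewer cells by construction, and the causes of the other moves were not tested. Median-of-ratios scaling moved the median of all genes by -0.13 to 0.06, past 0.1 in size only in B-like cells for Combined against MRX. No paired analysis was possible because each label has 1 library and the labels carry no replicate numbers.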

Other observations

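Some cells outside the classes compared also held these genes. Gamma-delta-like T cells had 1134 CPM of Icos in MRX and 2020 CPM in combod18t, from 35 and 60 cells, and the other 3 libraries had 33 or fewer such cells. In plasmacytoid dendritic-like cells Icos stood at 11.9 CPM (MRX), 49.4 (CTX), 210 (Combined), 181 (ctxd18t) and 269 (combod18t). Their Tnfsf8 was 0.5, 2.1, 117, 11.2 and 90.1 CPM in the same order, with up to 48 counts in 1 cell of Combined. All 9 genes of the T-cell marker list were detected in these cells and summed to 81.7, 291, 1147, 795 and 1464 CPM, and Cd3e was seen in 1.13%, 9.20%, 21.0%, 13.9% and 43.1% of them. The part of those markers in Icos and Tnfsf8 was not tested.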
